A study of Mus musculus with 87 samples.

Results

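The genes described here were 10 chromatin regulators that are known repressors of the endogenous retrovirus MERVL and of genes of the 2-cell (2C) embryo: Trim28, Setdb1, Kdm1a, Ehmt1, Ehmt2, Chaf1a, Chaf1b, Rif1, Pcgf6 and Smarca5. They were chosen by symbol from 55487 gene rows of the count tables, without a rule on their values but with earlier results of these data known. All 10 passed the filter on low counts in each of the 5 RNA-seq experiments. RNA-seq was available for 41 libraries and peak lists from CUT&RUN, which maps a protein or histone mark on chromatin by cutting the DNA beside a bound antibody, for 40 samples.

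MERVL elements and the genes driven by their promoters are switched on in the 2C embryo, when the zygotic genome is activated, and are silent in most mouse embryonic stem cells (mESCs). In mESCs this silence is kept by several layers: TRIM28 recruits the histone H3 lysine 9 methyltransferase SETDB1 to retroviral sequences, KDM1A (LSD1) removes active methyl marks, the EHMT1-EHMT2 (GLP-G9a) pair methylates H3 lysine 9, and the CAF-1 subunits CHAF1A and CHAF1B load histones behind the replication fork. RIF1 sets replication timing, PCGF6 is the defining subunit of the Polycomb complex PRC1.6, and SMARCA5 is the ATPase of ISWI remodelers. OBOX4 and DUX, the homeodomain factors manipulated in the study, are activators of the 2C programme, so these data hold the RNA levels of the opposing repressors while an activator is added or removed. Only RNA levels and peaks were measured, not the activity of the repressors.

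The first experiment used 129/Ola mESCs with the doxycycline-driven transgene TRE-3xFLAG-Obox4, untreated at 0 h and treated for 12 h or 48 h (3 libraries each). The second used B6D2F1 zygotes of WT genotype injected with antisense oligonucleotides (ASOs) and collected at the 2C stage, 30 embryos a library: scramble ASO at 40 µM, Obox4 KD or Dux KD at 20 µM, Dux/Obox4 double KD (DKD) at 40 µM, and DKD rescued by codon-optimized Obox4 mRNA at 100 ng/µL (2 libraries each). The third compared scramble KD with DKD in morulae (2 each). The fourth used single blastomeres of 2C embryos that all lacked Dux, with the genotypes Obox4 WT/Dux KO, Obox4 Het/Dux KO and Obox4/Dux double KO (2 each; Obox4 KO below). The fifth used 129/Ola mESCs under pladienolide B (PlaB), a splicing inhibitor that brings mESCs towards a 2C-like state: WT, Obox4 single KO, Dux single KO and Obox4/Dux double KO (DKO), 3 libraries each. The KO lines were grown from single CRISPR-edited clones, the DKO line was made from an Obox4 KO line, no RNA-seq library of this experiment lacked PlaB, and the peak lists for OBOX4 came from the tagged transgene rather than the endogenous protein. The peak list for DUX came from mESCs with the transgene TRE-3xFLAG-Dux. Peak lists for the histone marks H3K4me3, H3K27ac and H3K27me3 came from WT and Obox4 KO mESCs, each without and with PlaB. Each mark had 3 lists per genotype and treatment.

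Libraries held 14283083 to 104864947 counted reads, and replicates of a group correlated at r = 0.944 to 0.989 except in morulae (as low as 0.885) and single blastomeres (0.683 to 0.736). Obox4 is a multicopy gene whose reads the counting could split between near-identical copies, so its level is given over all 39 copies and again without the copy Obox4-ps35, which held most of its reads in the 2C embryos. Over all copies it stood at 0.488 to 0.939 CPM (counts scaled to the library total) at 0 h and 8.26 to 12.8 CPM after induction. Under PlaB it stood at 119.7 to 126 CPM in WT, 4.67 to 16.1 CPM in Obox4 KO and at most 0.378 CPM in Dux KO and DKO, where Duxf3, a Dux gene, was at 0.

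At the RNA level the check of the targets was weaker in the embryos. Over all copies, Obox4 in 2C embryos stood at 66.3 and 76.8 CPM in scramble, 63.8 and 80.9 CPM in Obox4 KD, 55.5 and 49.1 CPM in Dux KD, 47.7 and 44.3 CPM in DKD, and 41.3 and 45.1 CPM in rescue. Obox4 KD was then not below scramble, nor rescue above DKD. Without Obox4-ps35 it stood at 16.0 and 23.1 CPM in scramble, 3.76 and 4.33 CPM in Obox4 KD, 3.50 and 5.97 CPM in Dux KD, 2.33 and 2.89 CPM in DKD, and 9.28 and 12.8 CPM in rescue, so the lower level in Obox4 KD and the higher level in rescue than in DKD were seen only with that copy left out. Duxf3 stood at 11.7 and 15.4 CPM in scramble, 8.05 and 4.98 CPM in Dux KD, 10.2 and 8.51 CPM in DKD, and 20.8 and 11.99 CPM in rescue. The rescue libraries overlapped or exceeded the scramble libraries in Duxf3, although they too received the Dux ASO. The rescue mRNA was codon-optimized, so its reads may not count to the Obox4 copies, and these rows cannot check the rescue. The study also stained OBOX4 and DUX protein in knockdown embryos and reported OBOX4 protein restored in rescued embryos.

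In morulae, Obox4 over all copies was 3.76 CPM in DKD library 1, 25.7 CPM in DKD library 2 and 0.722 to 0.765 CPM in scramble, so neither DKD library lay below scramble. Without Obox4-ps35, library 1 held 0.303 CPM and library 2 20.3 CPM, against 0.599 to 0.606 CPM. MERVL internal sequence was 15423 CPM in DKD library 1, 44083 CPM in library 2 and 3094 to 3482 CPM in scramble. In the blastomeres Obox4 did not separate the genotypes, at 10.3 to 34.4 CPM over all copies and 0 to 8.74 CPM without Obox4-ps35. The study assigned these genotypes by PCR, and its deletion of the Obox4 cluster leaves other Obox4 copies in place. In the PlaB experiment Obox4 KO library 3 and DKO library 3 stood apart from the other libraries of their lines, at r = 0.948 and 0.946 with their own group. Results that rest on these libraries are given with and without them. Where nothing states separate cultures or animals, the p-values measure only the spread between these libraries.

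The 10 repressors differed widely in level, and their order was not the same in mESCs and 2C embryos. Divided by exon length (CPM per kb), Trim28 led in uninduced mESCs at 373 ± 29.3 (SD, n = 3), followed by Rif1 at 88.3 ± 5.74, Kdm1a at 72.8 ± 6.19 and Smarca5 at 64.9 ± 5.72. Ehmt1 at 7.42 and Chaf1a at 6.84 CPM per kb were the lowest. Kdm1a and Smarca5 lay within their spread of each other, whereas Trim28 stood well above its neighbour.

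In scramble 2C embryos Rif1 led instead, at 163 ± 1.17 CPM per kb (SD, n = 2), before Smarca5 at 57.5 ± 0.239, Setdb1 at 31.4 ± 0.733 and Trim28 at 28.9 ± 3.04. Setdb1 and Trim28 did not differ beyond their spread. The H3 lysine 9 methyltransferase gene Ehmt2 was last at 0.726 ± 0.0212 CPM per kb, below its partner Ehmt1 at 6.75, and the CAF-1 gene Chaf1b at 2.67 ± 0.368 lay below its partner Chaf1a at 16.8 ± 0.907. The Chaf1a level is uncertain, since 52.5% of its exon bases overlap Ubxn6 on the opposite strand. In scramble morulae the order resembled that of mESCs, with Trim28 first at 178 CPM per kb and Ehmt2 at 26.9. The experiments were normalised separately and differ in library preparation, so a level in one was not tested against a level in another. In bulk libraries, fewer cells expressing a gene and less RNA per cell cannot be told apart.

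**Figure D1:**
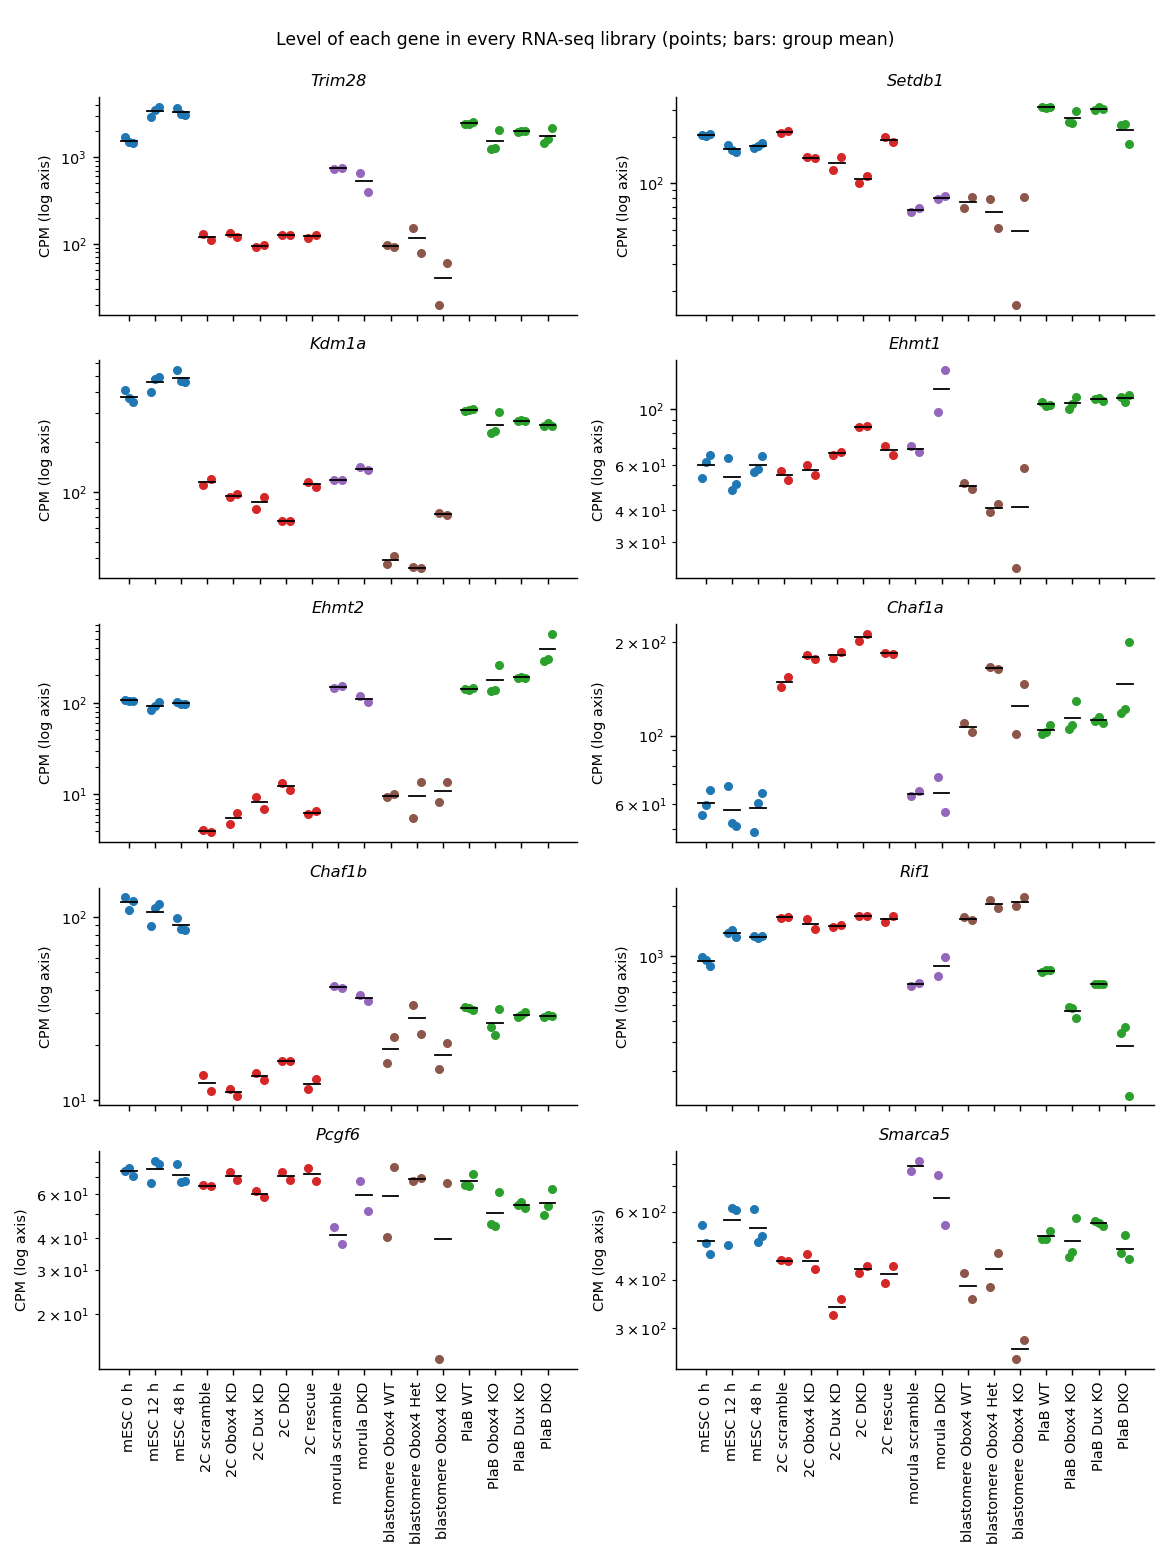
Level of each of the 10 repressor genes in each of the 41 RNA-seq libraries. The y axis is CPM on a log scale, the x axis the 17 groups by experiment, points are libraries and bars group means. Trim28 lies between 1472 and 3818 CPM in the libraries of the inducible line and at 91.4 to 134 CPM in the 2C embryos, and Ehmt2 lies at 3.90 to 13.2 CPM in the 2C embryos.

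After Obox4 induction Trim28 and Rif1 were higher and no other member was called by the test used throughout (edgeR quasi-likelihood test, Benjamini-Hochberg adjusted p of at most 0.05 over all genes tested, any fold). No RNA-seq library came from doxycycline-treated cells without the transgene. Doxycycline and time in culture therefore cannot be told apart from Obox4. Trim28, the scaffold that binds KRAB zinc-finger proteins, stood at 1691, 1489.5 and 1472 CPM in the 3 libraries at 0 h. It stood at 2932, 3509.5 and 3818 CPM at 12 h and at 3636, 3122 and 3045 CPM at 48 h. Every induced library lay above every uninduced library.

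The log2 fold change of Trim28 was 1.14 ± 0.14 (SE) at 12 h, 2.21-fold, adjusted p = 0.00155, and 1.08 ± 0.14 at 48 h, 2.11-fold, adjusted p = 0.000651. It passed with any 1 library left out at either time. Rif1 stood at 982, 939 and 863 CPM at 0 h, at 1383, 1426 and 1301 CPM at 12 h, and at 1312, 1275 and 1309.7 CPM at 48 h. The groups at 0 h and after induction did not overlap. Its log2 fold change was 0.56 ± 0.10 at 12 h (1.48-fold, adjusted p = 0.0127) and 0.49 ± 0.10 at 48 h (1.40-fold, adjusted p = 0.00994). Both calls on Rif1 depended on which libraries entered: its call was lost without 0 h library 2 or 0 h library 3 at both times, and also without 12 h library 2 at 12 h.

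Both induced times were set against the same 0 h libraries. The 2 of 10 members called, both higher, stood beside 3.28% of 18625 genes called at 12 h (2.24% called higher) and 12.2% at 48 h (8.37% called higher). By a stricter rule, an adjusted p of at most 0.01 and a fold of at least 2, Trim28 alone remained at 12 h (beside 0.757% of genes) and at 48 h (beside 3.95%). The members' median log2 fold change was -0.02 at 12 h and -0.03 at 48 h, against -0.01 over all genes at each time. Among those not called, Setdb1 had a log2 fold change of -0.30 ± 0.09 at 12 h (adjusted p = 0.0943), Kdm1a 0.39 ± 0.12 at 48 h (adjusted p = 0.0604) and Chaf1b -0.41 ± 0.12 at 48 h (adjusted p = 0.0533). MERVL internal sequence stood at 407 to 453 CPM at 0 h, 633 to 683 CPM at 12 h and 1424 to 1521 CPM at 48 h, so Trim28 and MERVL were both higher in induced than in uninduced libraries.

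OBOX4 peaks, called in 3 CUT&RUN libraries of the doxycycline-treated line, lay within 3000 bases of the start of 5 of the 10 members in at least 2 of the 3 lists: Rif1, Kdm1a, Trim28, Chaf1a and Smarca5. Of 19006 genes, 34.7% had such a peak. Setdb1 had a peak in list 2 alone, with a fold enrichment over background of 3.74. The other 4 members had none in at least 2 lists. With a window of 1000 bases Kdm1a dropped out, leaving 4 members beside 29.1% of genes, and with every annotated transcript start Pcgf6 entered, giving 6 members beside 39.5%.

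The peak upstream of Rif1 was among the strongest at any gene. Its enrichment was 192, 199.9 and 158 in the 3 lists, which ranked it 7 of 7444, 4 of 6268 and 6 of 6575 genes with a peak. List medians were 4.88, 5.62 and 4.77. Counted in bases from the Rif1 start (chromosome 2, 52072815, plus strand, GRCm38.p6), with upstream negative, the summits lay at -1563, -1568 and -1572.

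The peaks at Kdm1a and Trim28 were weaker and also present in all 3 lists. At Kdm1a the enrichment was 14.7, 17.5 and 16.2 (rank 601, 464 and 438), with summits at -3075, -3096 and -3055 from the start on chromosome 4 (136602787, minus strand). The start of another gene, Tex46, lay nearer to that summit, 1229 bases away. At Trim28 the enrichment was 10.2, 14.8 and 11.8 (rank 1059, 570 and 678). Its summits lay at -667 in list 1 and at 37 and 30 in lists 2 and 3, from the start on chromosome 7 (13024152, plus strand). Chaf1a (4.73, 7.03 and 4.20) and Smarca5 (3.86, 3.50 and 3.52) had enrichments near or below the list medians. No DUX peak, from a single list, lay within 3000 bases of a member, beside 1.23% of genes. That list came from another line, with the transgene TRE-3xFLAG-Dux. It held 1802 peaks with a lowest −log10 q of 5.03, against 20417 to 27713 peaks and 1.31 in the OBOX4 lists. The lists thus differ in stringency.

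The reference sequence under the Rif1 and Kdm1a summits is shown because these were the members with the strongest OBOX4 peaks. Each is 200 bases read on the gene's strand, and capitals run from the first to the last of the 3 list summits. For Trim28 the promoter is shown, since 2 of the 3 summits lie near its 3′ end; there capitals mark GGGCGG on either strand.
Rif1, chr2:52071147-52071346, plus strand: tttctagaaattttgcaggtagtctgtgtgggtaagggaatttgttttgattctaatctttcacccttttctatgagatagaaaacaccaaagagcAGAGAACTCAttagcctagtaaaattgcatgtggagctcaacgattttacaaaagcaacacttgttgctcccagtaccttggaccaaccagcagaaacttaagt
Kdm1a, chr4:136605763-136605962, minus strand: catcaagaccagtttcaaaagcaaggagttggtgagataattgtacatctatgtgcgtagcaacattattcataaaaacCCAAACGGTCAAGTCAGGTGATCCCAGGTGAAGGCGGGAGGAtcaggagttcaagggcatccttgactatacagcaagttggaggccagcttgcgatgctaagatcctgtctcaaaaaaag
Trim28, chr7:13023902-13024201, plus strand: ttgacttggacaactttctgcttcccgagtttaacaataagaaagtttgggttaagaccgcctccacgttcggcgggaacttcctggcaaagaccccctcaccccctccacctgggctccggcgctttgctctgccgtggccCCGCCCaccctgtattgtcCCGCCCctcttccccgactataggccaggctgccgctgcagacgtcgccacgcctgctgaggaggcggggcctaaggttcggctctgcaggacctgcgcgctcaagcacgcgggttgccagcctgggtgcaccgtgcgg

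The Rif1 window held 38.5% G and C and the Kdm1a window 45%, with 44% of its bases repeat-masked. CTGGGAT, the leading letters of the motif that the study derived from its strongest OBOX4 peaks, occurred once in the Kdm1a window, as its reverse complement ATCCCAG inside the capitals, and not in that of Rif1. It occurred in 10.05%, 9.53% and 9.81% of all 200-base windows around OBOX4 summits in the 3 lists, on either strand. The whole motif of the study was in neither window. The 6 letters GGATTA, a core bound by some homeodomains, were in neither window and in 14.33%, 13.78% and 14.08% of all such windows. Both share the letters GGAT, so 1 stretch can hold both. Genome sequence and gene starts are those of GRCm38.p6.

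**Figure D2:**
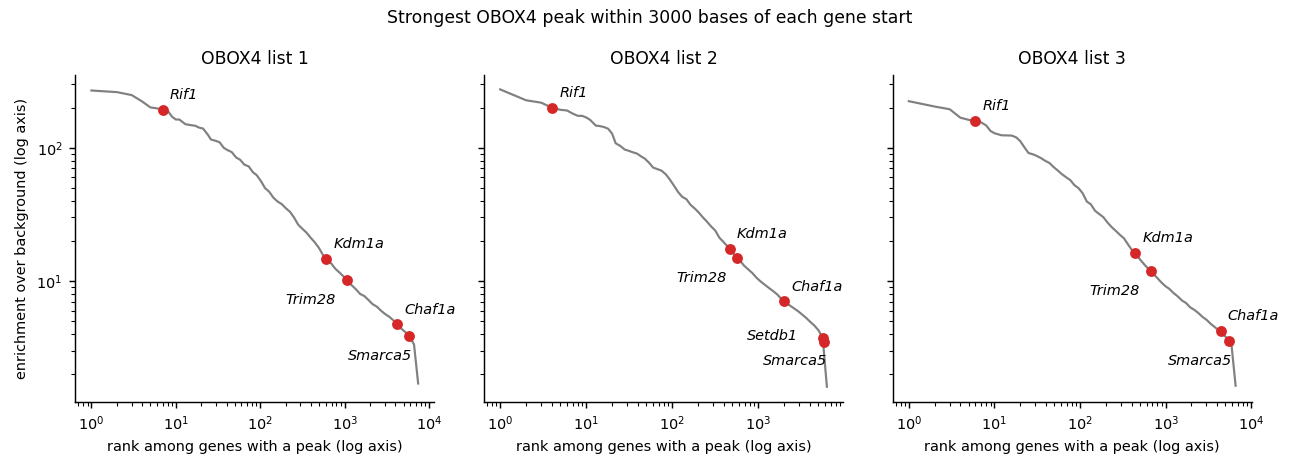
OBOX4 peaks at the repressor genes among all genes with an OBOX4 peak. Each panel is 1 peak list, the x axis is the rank of the gene by its strongest peak and the y axis fold enrichment, both on log axes. The grey line is all genes with a peak and the labelled points are members. Rif1 sits at rank 4 to 7, Kdm1a at 438 to 601 and Trim28 at 570 to 1059.

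In 2C embryos given both ASOs, Setdb1 and Kdm1a were lower and Ehmt1, Ehmt2, Chaf1a and Chaf1b higher than in scramble embryos, 6 of 10 members beside 37% of 23085 genes. The 4 higher stood beside 19.4% of genes called higher and the 2 lower beside 17.6% called lower. Setdb1, the H3 lysine 9 methyltransferase recruited by TRIM28, stood at 211 and 219 CPM in the scramble libraries. It stood at 149 and 146 CPM in Obox4 KD, 123 and 148 CPM in Dux KD, and 101 and 112 CPM in DKD. With Obox4 mRNA added to the DKD it stood at 200.2 and 185 CPM. Scramble libraries lay above all others, and the rescue libraries lay above all knockdown libraries.

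The log2 fold change of Setdb1 against scramble was -0.55 ± 0.09 in Obox4 KD (0.684-fold, adjusted p = 0.00149), -0.67 ± 0.09 in Dux KD (adjusted p = 5.31e-05) and -1.02 ± 0.09 in DKD (0.494-fold, adjusted p = 1.19e-07). Rescue exceeded DKD by 0.86 ± 0.09 (1.81-fold, adjusted p = 2.27e-06). Rescue against scramble gave -0.16, 95% interval -0.34 to 0.02, adjusted p = 0.275. The 3 knockdowns share the scramble libraries, and the rescue comparisons share libraries with them, so these values are not independent of each other. Setdb1 kept its call in each of the 3 knockdowns with any 1 of the 4 libraries of the comparison left out.

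Kdm1a, the histone demethylase of the CoREST complex, stood at 111 and 119.8 CPM in scramble, 93.0 and 96.5 CPM in Obox4 KD, 79.2 and 93.2 CPM in Dux KD, 66.8 and 66.5 CPM in DKD, and 115 and 107 CPM in rescue. Scramble and rescue libraries overlapped, and every knockdown library lay below both. Its log2 fold change was -0.28 ± 0.09 in Obox4 KD (adjusted p = 0.0694), -0.42 ± 0.09 in Dux KD (adjusted p = 0.00276) and -0.79 ± 0.09 in DKD (0.578-fold, adjusted p = 2.01e-06). The call in Dux KD was lost without Dux KD library 1. Rescue exceeded DKD by 0.74 ± 0.09 (adjusted p = 1e-05), and rescue against scramble gave -0.05 with an interval of -0.23 to 0.13.

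Ehmt2 (G9a) was scarce in 2C embryos and higher in Dux KD and DKD. It stood at 4.07 and 3.90 CPM in scramble, 4.74 and 6.20 CPM in Obox4 KD, 9.49 and 6.90 CPM in Dux KD, 13.2 and 11.2 CPM in DKD, and 6.05 and 6.53 CPM in rescue. The DKD libraries lay above all others. It rose 2.07-fold in Dux KD (log2 fold change 1.05 ± 0.20, adjusted p = 0.00114) and 3.07-fold in DKD (1.62 ± 0.19, adjusted p = 4e-06). Rescue was below DKD (-0.96 ± 0.18, 0.513-fold, adjusted p = 0.000556) and above scramble (0.66 ± 0.19, 1.57-fold, adjusted p = 0.0363).

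Its partner Ehmt1 (GLP) stood at 57.2 and 52.4 CPM in scramble, 66.1 and 67.8 CPM in Dux KD, 84.4 and 85.3 CPM in DKD, and 71.6 and 66.1 CPM in rescue. It rose in Dux KD (0.29 ± 0.09, adjusted p = 0.0278, a call lost with any 1 of the 4 libraries left out), in DKD (0.63 ± 0.09, adjusted p = 2.1e-05) and in rescue against scramble (0.33 ± 0.09, adjusted p = 0.0207). Against DKD it fell in rescue (-0.30 ± 0.09, adjusted p = 0.0134).

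The CAF-1 gene Chaf1a stood at 143 and 155 CPM in scramble and higher in all 8 other libraries, from 177 CPM in an Obox4 KD library to 213 CPM in a DKD library. It rose in Obox4 KD (0.26 ± 0.07, adjusted p = 0.0331, lost with any 1 library left out), Dux KD (0.29 ± 0.07, adjusted p = 0.00809, lost without Dux KD library 2 or scramble library 1), DKD (0.48 ± 0.07, adjusted p = 3.99e-05) and rescue against scramble (0.30 ± 0.07, adjusted p = 0.00845). The value is uncertain because 52.5% of Chaf1a exon bases overlap Ubxn6 on the opposite strand and the counting is not stated to use strand. Chaf1b, its partner, stood at 13.7 and 11.3 CPM in scramble and 16.5 and 16.4 CPM in DKD (0.39 ± 0.14, adjusted p = 0.0339). That call held in 1 of the 4 fits with a library left out.

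Trim28, Rif1, Pcgf6 and Smarca5 were not called in DKD. Trim28 stood at 129 and 111 CPM in scramble, 134 and 121 CPM in Obox4 KD, 91.4 and 96.6 CPM in Dux KD, and 127 and 126 CPM in DKD. It fell in Dux KD (-0.35 ± 0.09, adjusted p = 0.00773; lost without Dux KD library 1 or scramble library 1), and in DKD its log2 fold change was 0.07. Smarca5 stood at 449 and 446 CPM in scramble, 325 and 356 CPM in Dux KD, and 416 and 434 CPM in DKD. It fell in Dux KD (-0.40 ± 0.07, adjusted p = 0.000866) and had a log2 fold change of -0.07 in DKD. Rif1, with 1706 and 1724 CPM in scramble and 1732 CPM in both DKD libraries, had a log2 fold change of 0.01 in DKD with an interval of -0.12 to 0.15. Pcgf6 spanned 58.2 to 76.3 CPM over the 10 libraries and was called in no 2C comparison.

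By comparison, 2 members were called in Obox4 KD beside 5.85% of genes, 7 in Dux KD beside 19.6%, 3 in rescue against scramble beside 10.8%, and 5 in rescue against DKD beside 28.2%. Leaving out 1 library at a time gave 0 to 2 calls in rescue against scramble (0 without scramble library 1, 1 without scramble library 2 or rescue library 1) and 3 or 4 in rescue against DKD (3 without DKD library 1 or 2). By the stricter rule Setdb1 and Ehmt2 remained in DKD beside 11.6% of genes and Ehmt2 in Dux KD beside 4.3%. No member met it in Obox4 KD (0.412% of genes), rescue against scramble (2.67%) or rescue against DKD (4.37%). Members' medians were 0.03, -0.14 and 0.10 on the log2 scale in Obox4 KD, Dux KD and DKD, against 0.00, 0.04 and 0.03 over all genes.

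Whether the effect of DKD differed from the sum of both single knockdowns was tested as an interaction. The single knockdowns received 20 µM ASO, and scramble and DKD 40 µM. ASO dose therefore cannot be told apart from the target in this contrast or in each single knockdown against scramble. No member passed (edgeR, beside 2.57% of genes). At unadjusted p below 0.05 there were 5 (Trim28, Ehmt1, Chaf1b, Rif1 and Smarca5), and DESeq2 also called 0. Rif1 came nearest at 0.33 ± 0.09 (adjusted p = 0.0679), then Smarca5 at 0.33 ± 0.10 (adjusted p = 0.0971), and Trim28 gave 0.34 with adjusted p = 0.153. Without Obox4 KD library 1, Rif1 passed.

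MERVL internal sequence stood at 74191 to 77863 CPM in scramble and at 38250 to 41697 CPM in DKD. It stood at 47134 to 57273 CPM in Obox4 KD, 42565 to 45595 CPM in Dux KD and 48086 to 68108 CPM in rescue. The summed level of 6 oocyte or maternal markers was 2319 to 2407 CPM in scramble, 2179 to 2291 CPM in Obox4 KD, 1919 to 2075 CPM in Dux KD, 1310 to 1467 CPM in DKD and 2231 to 2291 CPM in rescue. The sum of 7 2C markers was 986 to 1043 CPM in scramble and 352 to 371 CPM in DKD. It was 858 to 882 CPM in Obox4 KD, 562 to 571 CPM in Dux KD and 551 to 682 CPM in rescue. None of these markers was below 0.1 CPM in every library. MERVL and both sums were lower in DKD than in scramble, and higher in rescue than in DKD. In rescue MERVL overlapped Obox4 KD and the 2C sum lay below it, whereas Setdb1 and Kdm1a lay above every knockdown library. The part of these levels in the members' changes was not tested.

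**Figure D3:**
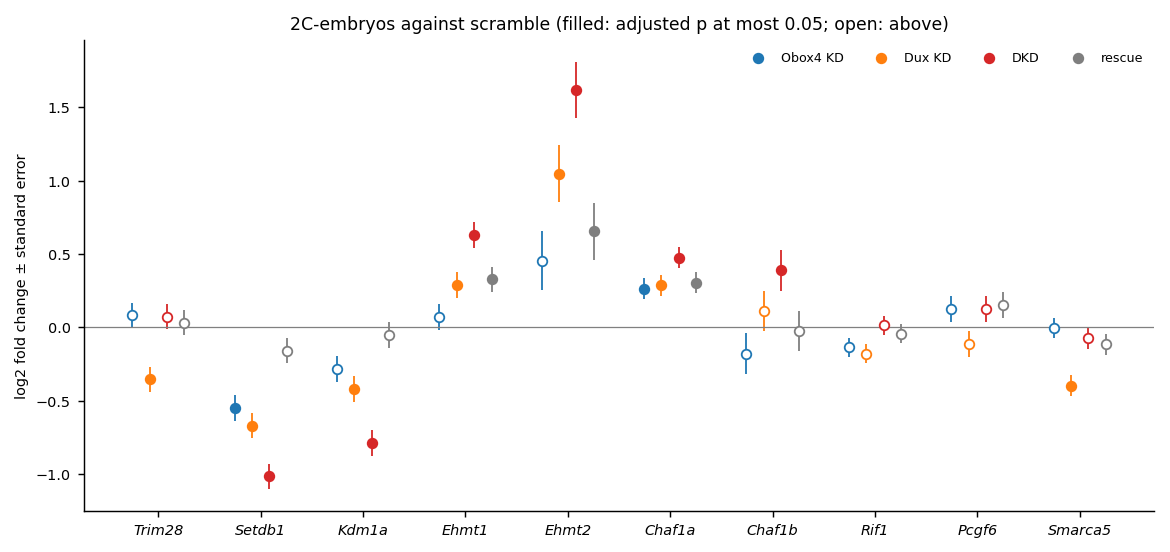
Log2 fold change against scramble of each repressor gene in 2C embryos. The y axis is log2 fold change, bars are the standard error of the edgeR fit, colours are Obox4 KD, Dux KD, DKD and rescue, and filled points have an adjusted p of at most 0.05. Setdb1 goes from -0.55 and -0.67 in the single knockdowns to -1.02 in DKD and -0.16 in rescue, and Ehmt2 reaches 1.62 in DKD.

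The promoters of Setdb1, Kdm1a and Ehmt2 are shown because these members had the largest changes in DKD embryos. Each runs from 250 bases before a RefSeq start to 50 after it on the gene's strand (GRCm38.p6). For Kdm1a and Ehmt2 that start lies slightly inside the outermost gene start used for the peaks. In them capitals mark CCAAT or GGGCGG, or their reverse complements ATTGG and CCGCCC.
Setdb1, chr3:95357153-95357452, minus strand: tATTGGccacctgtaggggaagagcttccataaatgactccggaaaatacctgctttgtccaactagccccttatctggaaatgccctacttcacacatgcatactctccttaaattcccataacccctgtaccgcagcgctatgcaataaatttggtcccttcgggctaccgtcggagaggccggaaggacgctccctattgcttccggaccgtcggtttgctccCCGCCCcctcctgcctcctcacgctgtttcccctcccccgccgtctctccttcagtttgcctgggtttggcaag
Kdm1a, chr4:136602674-136602973, minus strand: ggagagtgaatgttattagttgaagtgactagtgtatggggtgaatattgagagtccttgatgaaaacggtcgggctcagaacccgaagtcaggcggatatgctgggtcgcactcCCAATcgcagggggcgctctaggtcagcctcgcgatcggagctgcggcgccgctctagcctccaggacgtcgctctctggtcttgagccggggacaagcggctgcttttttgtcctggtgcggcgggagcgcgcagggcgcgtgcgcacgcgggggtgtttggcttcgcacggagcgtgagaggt
Ehmt2, chr17:34898224-34898523, plus strand: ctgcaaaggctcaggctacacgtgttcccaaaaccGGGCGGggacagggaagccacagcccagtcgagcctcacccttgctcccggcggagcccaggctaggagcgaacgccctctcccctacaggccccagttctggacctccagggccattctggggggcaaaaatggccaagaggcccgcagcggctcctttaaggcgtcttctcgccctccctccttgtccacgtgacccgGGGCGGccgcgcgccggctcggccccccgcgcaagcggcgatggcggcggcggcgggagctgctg

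The Setdb1 promoter held 1 CCAAT and 1 GGGCGG, that of Kdm1a 1 CCAAT, and that shown for Ehmt2 2 GGGCGG and, not in capitals, 2 CACGTG. Another Ehmt2 promoter entry, chr17:34898720-34899019, is not shown and held 4 GGGCGG and 1 CACGTG. Over 32851 promoters of the same length, 37.41% held CCAAT, 35.66% GGGCGG and 7.15% CACGTG on either strand. GGATTA (7.06% of promoters) and CTGGGAT (6.18%) were in none of these promoters. Of the members, 9 of 10 matched a promoter entry.

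In PlaB-treated mESCs, Trim28, Rif1 and Pcgf6 fell in Obox4 KO, and in DKO Setdb1, Kdm1a and Rif1 fell while Ehmt2 and Chaf1a rose. The calls in Obox4 KO depended on single libraries: with 1 of the 6 libraries left out, Trim28 and Pcgf6 were called only without Obox4 KO library 3, and Rif1 in 0 of the 6 fits (adjusted p 0.0593 to 0.0717). In DKO, Kdm1a was called in 1 and Chaf1a in 2 of the 6 such fits. Rif1 stood at 798, 819 and 826 CPM in WT, 492, 485 and 419.5 CPM in Obox4 KO, 679, 675 and 678 CPM in Dux KO, and 339, 372 and 142 CPM in DKO. The 4 lines did not overlap, in the order WT, Dux KO, Obox4 KO, DKO. The log2 fold change against WT was -0.81 ± 0.25 in Obox4 KO (0.572-fold, adjusted p = 0.0318), -0.27 in Dux KO (not called) and -1.52 ± 0.25 in DKO (0.350-fold, adjusted p = 0.000494). Without both libraries that stood apart the values were -0.77 (adjusted p = 1.04e-12), -0.26 and -1.20.

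Trim28 stood at 2435, 2411 and 2565 CPM in WT, 1246, 1277 and 2052 CPM in Obox4 KO, 1961, 2020.2 and 1991 CPM in Dux KO, and 1465, 1621 and 2183 CPM in DKO. All KO libraries lay below all WT libraries, and the high value in Obox4 KO and in DKO came from the library that stood apart. Its log2 fold change was -0.70 ± 0.19 in Obox4 KO (0.617-fold, adjusted p = 0.0169), -0.31 ± 0.19 in Dux KO (adjusted p = 0.312) and -0.49 in DKO (adjusted p = 0.0525). Without those 2 libraries it was -1.0 in Obox4 KO (adjusted p = 3.23e-14), -0.31 in Dux KO and -0.69 in DKO, all called.

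Ehmt2 stood at 143, 136 and 144 CPM in WT, 134, 139 and 258 CPM in Obox4 KO, 188, 193 and 188 CPM in Dux KO, and 287, 298 and 565 CPM in DKO. The highest values in Obox4 KO and DKO were again those of the libraries that stood apart. It rose 2.72-fold in DKO (log2 fold change 1.44 ± 0.27, adjusted p = 0.00114), by 1.05 without the 2 libraries, and had a log2 fold change of 0.43 ± 0.27 in Dux KO (adjusted p = 0.333). Ehmt1 spanned 99.6 to 113 CPM over the 12 libraries and was not called.

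Setdb1 stood at 316, 309.6 and 316 CPM in WT, 249.9, 248 and 296 CPM in Obox4 KO, 300.4, 312 and 306 CPM in Dux KO, and 239, 244 and 181 CPM in DKO. It fell in DKO (-0.50 ± 0.12, 0.706-fold, adjusted p = 0.0048) and gave -0.25 in Obox4 KO (adjusted p = 0.146). Kdm1a stood at 309.7 to 316 CPM in WT and 249.7 to 260.0 CPM in DKO (-0.30 ± 0.11, adjusted p = 0.0437). Without both libraries Setdb1 and Kdm1a gave -0.37 and -0.47 in Obox4 KO and -0.38 and -0.30 in DKO, all called.

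Pcgf6 stood at 65.2, 64.4 and 72.1 CPM in WT and 45.5, 44.8 and 61.2 CPM in Obox4 KO (-0.41 ± 0.13, 0.751-fold, adjusted p = 0.0393). Chaf1a rose in DKO (0.50 ± 0.17, adjusted p = 0.0347), where DKO library 3 held 201 CPM against 118 and 122 CPM in the other two, and its log2 fold change was 0.20 without the 2 libraries. Its count may here too hold reads of the overlapping gene Ubxn6. Chaf1b lay at 31.1 to 32.3 CPM in WT and at 22.8 to 31.7 CPM over the 9 KO libraries. Smarca5 spanned 453 to 578 CPM over the 12 libraries. Neither was called with all libraries.

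The members called numbered 3 in Obox4 KO beside 25.8% of 22328 genes, 0 in Dux KO beside 16.6%, and 5 in DKO beside 41.3%. By direction, the 3 lower in Obox4 KO stood beside 11.6% of genes, and the 3 lower and 2 higher in DKO beside 20.5% and 20.8%. In Dux KO the edgeR count at unadjusted p below 0.05 was 1 (Pcgf6) and DESeq2 called 0. The counts depended on the libraries that stood apart: without both, 7 members were called in Obox4 KO, all lower, and 7 in Dux KO (Trim28, Kdm1a, Rif1 and Pcgf6 lower, Ehmt2, Chaf1a and Smarca5 higher). In Dux KO, log2 fold changes of 0.11 (Chaf1a and Smarca5) then passed. The share of all genes called in that fit is not given here. Without 1 library, Obox4 KO gave 5 calls when library 3 was left out, with Rif1 lost, and 0 when library 1, library 2 or any WT library was left out. DKO gave 3 calls without any WT library (Kdm1a and Chaf1a lost), 4 without DKO library 1 or 2, and 6 without DKO library 3. By the stricter rule Rif1 and Ehmt2 remained in DKO beside 18% of genes, and no member in Obox4 KO beside 8.88%.

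The interaction of both deletions called no member (edgeR, beside 7.53% of genes; 1 at unadjusted p below 0.05, Pcgf6; 0 by DESeq2). Without both libraries that stood apart it called 6: Trim28 (0.62), Kdm1a (0.38), Ehmt2 (0.69), Chaf1b (0.39) and Pcgf6 (0.52) above the sum of the single deletions, and Rif1 (-0.17) below it. It called 5 of these, not Rif1, when only Obox4 KO library 3 was left out. The share of all genes called in these fits is not given here. All 3 KO lines were set against the same WT libraries.

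Cell-state markers moved with the genotype. The sum of 7 mESC markers was 3334 to 3401 CPM in WT, 1717 to 2264 CPM in Obox4 KO, 2718 to 2740.0 CPM in Dux KO and 1442 to 1583 CPM in DKO. The sum of 6 morula markers was 145 to 148 CPM in WT, 547 to 1889 CPM in Obox4 KO, 399 to 408 CPM in Dux KO and 3006 to 3754 CPM in DKO, and that of 7 2C markers was 909 to 981 CPM in WT and 103 to 192 CPM in DKO. MERVL internal sequence stood at 13810.1 to 15825 CPM in WT, 3010.4 to 4357 CPM in Obox4 KO, 366 to 372 CPM in Dux KO and 87.4 to 183 CPM in DKO. MERVL was lowest in the line where Rif1, Setdb1 and Kdm1a were called lower. The part of the marker shifts in the members' changes was not tested, and a difference between single clones cannot be told apart from the genotype.

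**Figure D4:**
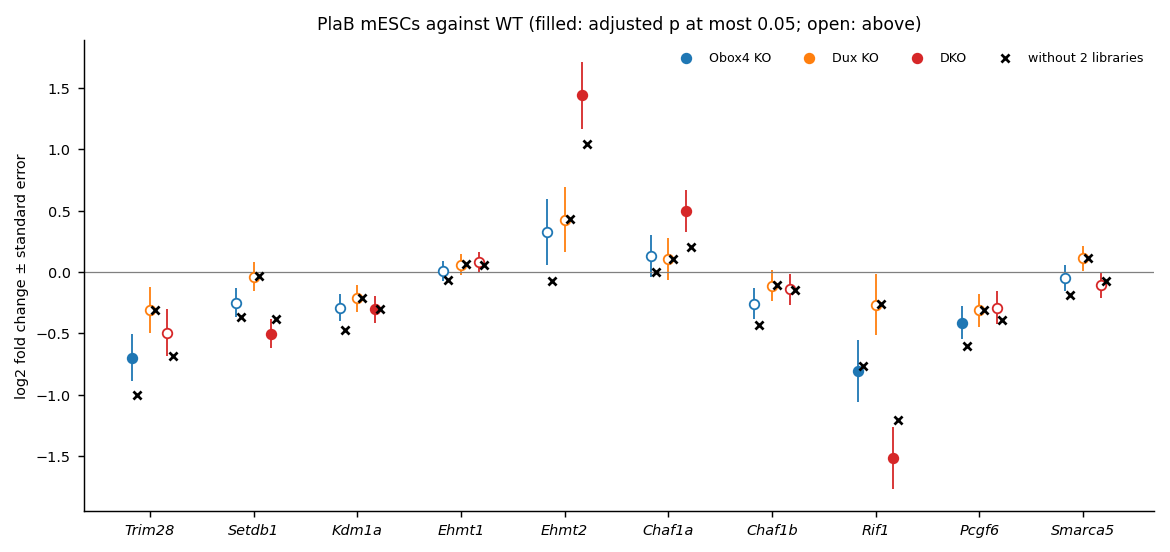
Log2 fold change against WT of each repressor gene in PlaB-treated mESCs. The y axis is log2 fold change, bars are the standard error, colours are Obox4 KO, Dux KO and DKO, filled points have an adjusted p of at most 0.05, and black crosses are the values without Obox4 KO library 3 and DKO library 3. Rif1 reaches -1.52 and Ehmt2 1.44 in DKO, and Trim28 in Obox4 KO goes from -0.70 to -1.0 without the 2 libraries.

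In morulae no member was called after DKD (edgeR, beside 0% of 22142 genes). At unadjusted p below 0.05 there were 2 members (Ehmt1 and Ehmt2) and 3941 genes, and DESeq2 called 0 members and 1583 genes. Ehmt1 stood at 71.2 and 67.4 CPM in scramble and 97.3 and 142 CPM in DKD (0.79 ± 0.23, adjusted p = 0.23). Ehmt2 stood at 145 and 151 CPM in scramble and 117 and 102 CPM in DKD (-0.43 ± 0.17, adjusted p = 0.279). Trim28 stood at 730.4 and 753 CPM in scramble and 661 and 394 CPM in DKD.

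DKD library 2 had the highest Obox4 level of the 4 morula libraries. Without it, the log2 fold change was 0.49 for Ehmt1, 0.72 for Pcgf6 and -0.33 for Ehmt2. A fit without DKD library 1 or 2 has 1 DKD library, assumed to vary like the scramble pair, so calls from such fits are not listed here. The sign of Ehmt2 was thus positive in DKD 2C embryos and negative in DKD morulae. The difference between stages was not tested.

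Among single blastomeres, all Dux KO, no member was called for Obox4 Het (edgeR, 0% of 19182 genes; 0 at unadjusted p below 0.05; 0 by DESeq2) or Obox4 KO (0.0261% of genes; 2 at unadjusted p below 0.05, Trim28 and Kdm1a; 0 by DESeq2). Trim28 stood at 97.9 and 92.0 CPM in Obox4 WT, 154 and 79.0 CPM in Het, and 20.0 and 61.1 CPM in KO, with a log2 fold change of -1.23 ± 0.53 in KO, interval -2.40 to -0.05, adjusted p = 0.641. Kdm1a averaged 38.7 ± 3.29 CPM (SD, n = 2) in WT and 73.2 ± 1.32 CPM in KO, with no overlap (0.92 ± 0.41, adjusted p = 0.641). Setdb1 spread from 16.3 to 81.4 CPM between both KO blastomeres. Without KO library 2, Trim28 gave -2.26, Setdb1 -2.22 and Pcgf6 -2.15. Without KO library 1 they gave -0.63, 0.11 and 0.18, and each of these fits has 1 KO library.

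At this spread, simulated 2-fold changes were recovered in 0% of cases in KO blastomeres and in morulae, against 47.5% in DKD 2C embryos and 28% in DKO mESCs. The simulation set 93 of 17782 genes in blastomeres and 94 of 21176 in morulae to change 2-fold, drawn over all levels. It does not give the power at the members' own levels, so their uncalled changes are not shown to be absent. In DKD 2C embryos 99 of 22669 genes were set to change 2-fold, and in DKO mESCs 100 of 22088, with as many set to change 4-fold. In the data 37% and 41.3% of genes were called. Adjustment of p is stricter where few genes change, so 47.5% and 28% do not give the recovery in those fits.

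H3K4me3, a mark of active promoters, had a peak at the start of all 10 members in at least 2 of 3 lists in each of 4 conditions of the CUT&RUN experiment, WT and Obox4 KO mESCs without and with PlaB. Over all genes the shares were 80.4% in WT without PlaB, 76.0% in WT with PlaB, 77.8% in Obox4 KO without PlaB and 76.6% in Obox4 KO with PlaB. Smarca5 had the highest enrichment in WT without PlaB, 69.7 to 87.5 over the 3 lists. Setdb1 stood at 32.9 to 39.9 in WT and 70.9 to 96.6 in Obox4 KO without PlaB, and at 36.5 to 39.3 and 58.1 to 66.2 with PlaB. Trim28 stood at 30.9 to 43.6 in WT and 69.4 to 92.5 in Obox4 KO without PlaB.

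In lists without PlaB all Obox4 KO values lay above all WT values at 7 members (all but Chaf1b, Rif1 and Smarca5), beside 50.7% of 14431 genes, and with PlaB at all 10, beside 71.6% of 13865 genes. Whole lists differed, with median enrichments of 8.96 to 9.16 in WT and 11.4 to 11.8 in Obox4 KO without PlaB. Divided by the median of each list, 4 members stayed above without PlaB (Trim28, Setdb1, Kdm1a and Ehmt1, beside 18.8%) and 10 with PlaB (beside 59.1%). No test was run on these lists. An exact permutation test of 3 against 3 cannot go below p = 0.1.

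H3K27ac, a mark of active promoters and enhancers, was present at 9 members in WT without PlaB (all but Chaf1b, beside 46.6% of genes) and at 9 in Obox4 KO without PlaB (all but Ehmt1, beside 46.6%). With PlaB it was present at 9 in WT (beside 44.0%) and at 8 in Obox4 KO (neither Ehmt1 nor Chaf1b, beside 43.5%). Rif1 had the highest enrichment of the members in every condition, from 17.4 to 31.1 over the 12 lists. Of the 7 members with H3K27ac in all lists compared, the Obox4 KO lists lay above the WT lists at Setdb1 without PlaB (22.8% of 6767 genes) and at Rif1 with PlaB (15.9% of 6120 genes). Divided by the list medians, Setdb1 no longer did (0 of 7 members, 13.5% of genes), and Rif1 did (20.7% of genes).

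The Polycomb mark H3K27me3 was found at Setdb1 and at no other member. At Setdb1 the enrichment was 2.58 and 2.66 in 2 lists of WT without PlaB (26.8% of genes had a peak), 3.53 to 4.66 in 3 lists of Obox4 KO without PlaB (31.1%) and 2.29 to 3.02 in Obox4 KO with PlaB (31.4%). In WT with PlaB no member had it in at least 2 lists, beside 25.0% of genes.

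**Figure D5:**
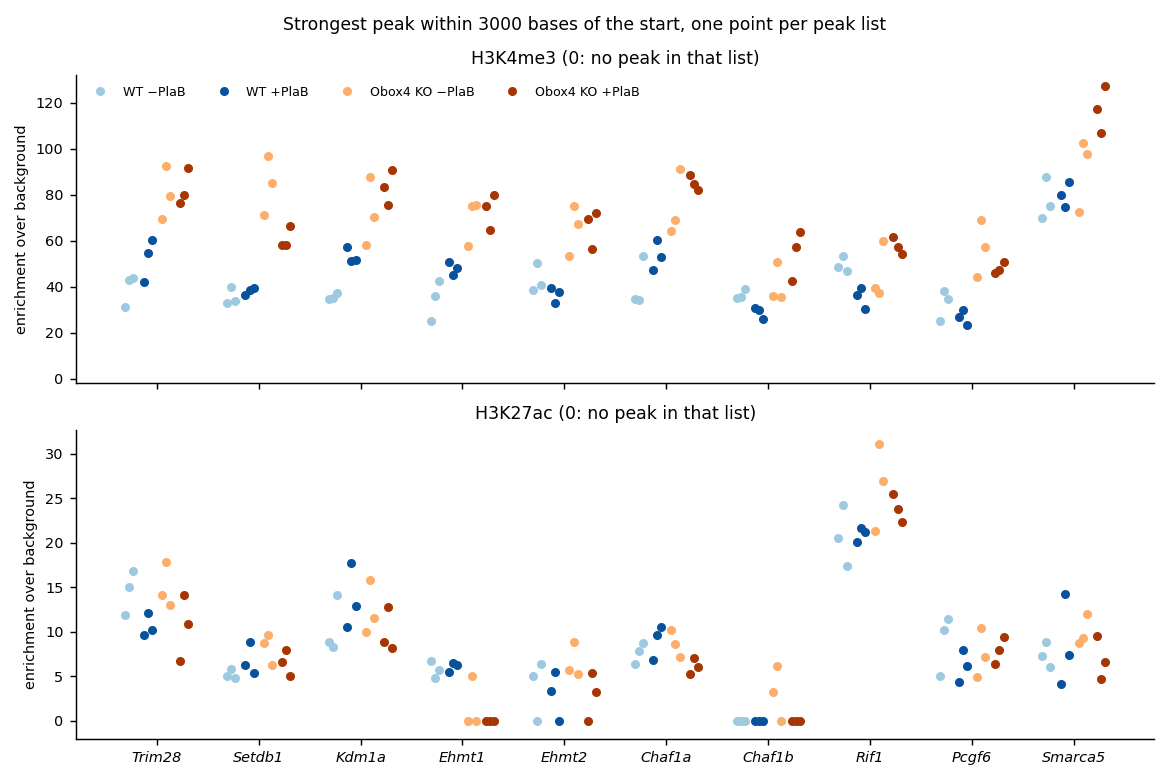
Fold enrichment of the strongest H3K4me3 and H3K27ac peak within 3000 bases of the start of each repressor gene. The y axis is fold enrichment, each point is 1 peak list, colours are WT and Obox4 KO mESCs without and with PlaB, and 0 means no peak. Setdb1 H3K4me3 spans 32.9 to 39.9 in WT and 70.9 to 96.6 in Obox4 KO without PlaB, and Rif1 has the highest H3K27ac.

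The other genes of the same complexes were followed as 8 lists, with Pcna, Hdac1, Hdac2, Cbx3 and Mphosph8 in more than 1 list. In DKD 2C embryos the CAF-1 and histone chaperone list had 2 genes higher and 5 lower of 9, with a median log2 fold change of -0.53 against 0.03 over all genes. Over all genes, 19.4% were called higher and 17.6% lower in DKD, beside which the counts of each list are to be read. Asf1a (-1.01 ± 0.09, adjusted p = 2.46e-07), Asf1b (-0.90) and Rbbp7 (-0.89), which hand over or bind histones, fell. Hira, a chaperone of the replication-independent histone H3.3, rose (1.77 ± 0.17, adjusted p = 3.79e-07).

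Of the TRIM28-SETDB1 and HUSH partners 4 rose and 6 fell of 18 in DKD, including Resf1 (-0.66) and Cbx1 (-0.66) lower and the HUSH subunit gene Fam208a (0.75) higher. Of the G9a-GLP partners 2 rose (Zfp518b at 1.28 and Zfp644 at 0.25) and 1 fell (Cdyl at -0.42) of 7. Of the LSD1-CoREST partners Gfi1 rose (2.58 ± 0.43) and Hdac2 fell (-0.51) of 9. Of PRC1.6 2 rose (E2f6 at 1.22 and L3mbtl2 at 0.75) and 6 fell, Rnf2 among them (-0.42), of 13. The counts were 1 higher and 2 lower of 5 RIF1 partners, 3 and 3 of 10 ISWI partners, and 8 and 6 of 20 DNA replication and S phase genes.

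In the single knockdowns the CAF-1 and chaperone list had the most lower calls of the 8 lists, 3 of 9 in Obox4 KD and 6 of 9 in Dux KD, beside 2.84% and 9.45% of genes called lower, with 1 higher (Hira) in each. Over the counts that follow, genes called in either direction made up 5.85% in Obox4 KD and 19.6% in Dux KD. The TRIM28-SETDB1 and HUSH list gave 1 higher and 2 lower in Obox4 KD and 2 and 4 in Dux KD, LSD1-CoREST 0 and 2, then 1 and 2, G9a-GLP 1 and 0, then 1 and 1, and RIF1 partners 0 and 1, then 0 and 2. PRC1.6 gave 1 and 1, then 1 and 3, ISWI 1 and 1, then 0 and 3, and DNA replication and S phase 4 and 1, then 2 and 3. Set against DKD, where 28.2% of genes were called, rescue had 5 higher and 1 lower of the CAF-1 and chaperone list, with Asf1a at 0.76, Asf1b at 0.72, Rbbp7 at 0.82 and Hira at -1.17. It had 6 higher and 4 lower of the TRIM28-SETDB1 and HUSH list, with Resf1 at 0.49, Uhrf1 at 0.76 and Fam208a at -0.56. Not all partners changed in DKD moved back in rescue. Gfi1 was not called against DKD (0.10, edgeR adjusted p = 0.864) and stood at 2.68 ± 0.43 against scramble. Mga was not called against DKD either (-0.24) and stood at -0.80 against scramble. Counts of the other lists in rescue are not given here.

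In DKO mESCs under PlaB, 9 of 18 TRIM28-SETDB1 and HUSH partners fell and 1 rose, with a median log2 fold change of -0.28 against -0.06 over all genes, of which 20.5% were called lower and 20.8% higher. Atrx, which works with DAXX to deposit histone H3.3, fell (-1.40 ± 0.21, adjusted p = 0.0002), as did Fam208a (-0.73) and Resf1 (-0.69), while Daxx rose (0.70). Of 9 LSD1-CoREST partners 5 fell and none rose, with a median of -0.76, among them the CoREST gene Rcor2 (-1.58) and the deacetylase genes Hdac1 (-0.90) and Hdac2 (-0.86).

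The other lists in DKO, beside the same shares, gave 1 higher and 4 lower for CAF-1 and chaperones (Ubn1 at 1.32 and Asf1a at -1.38), 1 and 2 for G9a-GLP, 1 and 1 for RIF1 partners, 2 and 5 for PRC1.6, 1 and 4 for ISWI and 4 and 6 for DNA replication and S phase. In Obox4 KO, where 25.8% of genes were called, the counts were 2 higher and 3 lower for TRIM28-SETDB1 and HUSH (Atrx at -1.32 and Fam208a at -0.67), 0 and 2 for LSD1-CoREST (Rcor2 at -1.75 and Hdac1 at -0.76) and 2 and 1 for CAF-1 and chaperones. In Dux KO, where 16.6% of genes were called, they were 1 and 2, 0 and 0, and 2 and 1 for the same lists. G9a-GLP, RIF1, PRC1.6, ISWI and DNA replication and S phase gave 1 and 0, 0 and 0, 3 and 2, 0 and 2, and 4 and 5 in Obox4 KO. In Dux KO these lists gave 0 and 0, 0 and 1, 2 and 1, 0 and 3, and 4 and 0.

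After Obox4 induction, when 3.28% of all genes were called at 12 h and 12.2% at 48 h, the partner lists gave these calls. At 12 h Zfp518b (-0.63) and Uhrf1 (-0.46) fell and no listed gene rose. At 48 h Rcor2 (0.64), Ppp1cc (0.61) and Resf1 (0.37) rose, and Zfp518b (-0.72), Uhrf1 (-0.50), Dnmt1 (-0.42), Tfdp1 (-0.68), Wdr5 (-0.36), Rrm2 (-0.50) and Rrm1 (-0.35) fell. In morulae and blastomeres no gene of any list was called.

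Across the 17 groups, genes whose mean log2 CPM closely followed that of a member were, by Pearson's r among 13994 genes, Cct3 (0.988) and Hdac3 (0.985) for Trim28, Pycrl (0.936) for Setdb1, Tamm41 (0.986) for Kdm1a and Chd5 (0.945) for Ehmt1. For Chaf1a, Chaf1b, Rif1, Pcgf6 and Smarca5 they were Zfp513 (0.956), Zwilch (0.954), Strbp (0.964), Adcy1 (0.902) and Syncrip (0.956). Among the members, Trim28 followed Kdm1a (0.899) and Ehmt2 (0.892), whereas Ehmt2 ran opposite to Rif1 (-0.850). Chaf1a, whose count may hold reads of the overlapping gene Ubxn6, ran opposite to Chaf1b (-0.875). These values describe the 17 groups, which share libraries of the same cell type and preparation, and carry no test.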

How the data were processed

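Counts of reads per gene were deposited by the authors, who trimmed reads with fastp 0.23.2, aligned them with STAR 2.7.9a to GRCm38.p6 and counted with featureCounts 2.0.1. A second table per experiment, deposited by the authors, holds estimated counts over genes and repeat families in which a read with several alignments counts as fractions, and MERVL and the manipulated genes were read from it. The blastomere gene table also held such fractions, which were rounded to whole numbers. Peak lists were deposited with the fold enrichment, a ratio of pileup over background, and with the −log10 of the q-value as MACS3 3.0.0a6 gave them per library, after alignment with Bowtie2 2.4.1. Columns of the authors' own comparisons were not used. IgG samples with conflicting labels were left unassigned and not used.

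Counts were filtered (filterByExpr), scaled by TMM and tested with the quasi-likelihood test of edgeR 4.0.16 in R 4.3.3, with all groups of an experiment in 1 fit and Benjamini-Hochberg adjustment over all genes tested. A gene was called changed at an adjusted p of at most 0.05, and a stricter rule (at most 0.01 and at least 2-fold, one reading of the fold threshold given in the study's methods) was an alternative. CPM were computed with TMM-scaled totals, and CPM per kb with exon length. Peaks were assigned within 3000 bases of a RefSeq gene start and required in at least 2 of 3 lists. All 10 members are named. Of each partner list up to 4 called genes per comparison with the smallest p, and of like genes the nearest ones, were named, apart from items not reported here. Alternatives were DESeq2 1.42.0, other scaling, no filter, fits on 2 groups, a replicate block, the other count table and leaving out libraries. The fits were tested on simulated data. The members and the lists were chosen with earlier results of these data known.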

Additional observations from a re-analysis of the deposited data

How the results depend on the processing

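No member called with all libraries turned its direction under any alternative, and 72 of 1730 values under the alternatives differed in sign from an uncalled value. Leaving out 1 library at a time gave 1 to 3 called members at 12 h and at 48 h. Under PlaB it gave 0 to 5 in Obox4 KO mESCs, 3 to 6 in DKO mESCs and 0 to 5 in the interaction. In 2C embryos, morulae and blastomeres such a fit leaves 1 library in a group, and its counts are not given in this paragraph. By the stricter rule the members called were 1 at 12 h, 1 at 48 h, 0 in Obox4 KD, 1 in Dux KD, 2 in DKD, 0 in both rescue comparisons, 0 in Obox4 KO and 2 in DKO mESCs. DESeq2 called 4 at 48 h, adding Setdb1 and Chaf1b. A fit on 2 groups alone called 1 at 12 h, 4 at 48 h, 1 in rescue against scramble and 7 in Dux KO mESCs. Without the filter on low counts the 2C interaction had 2 (Rif1 and Smarca5) and morulae 1 (Ehmt1). The share of all genes called under these alternatives is not given here, so the counts show only how the calls depend on the setting.

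Without Obox4 KO library 3 and DKO library 3, a setting chosen after seeing the data, 7 members were called in Obox4 KO, 7 in Dux KO and 6 in the PlaB interaction. The residual spread of that fit no longer holds these libraries. With OBOX4 peaks at a −log10 q of at least 10, 3 members kept a peak (Trim28, Kdm1a and Rif1). With a replicate block 1 member was called at 12 h and 1 at 48 h, Rif1 being lost. Same-numbered libraries did not pair: correlations of their deviations ran from -0.58 to 0.338 in the induction and from -0.027 to 0.085 in the PlaB, 2C, morula and blastomere experiments. Morula libraries held 53573946 to 104864947 counted reads. With all libraries, the edgeR fit with the filter on low counts called no gene there, whereas DESeq2 did call genes.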
